A study of Mus musculus with 10 samples.

Results

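The genes described here are the 53 that carry glucose and lactate across the cell membrane, run glycolysis and the pentose phosphate pathway, bring pyruvate into mitochondria and run the citrate cycle, with the regulator Hif1a and the itaconate enzyme Acod1. They were chosen by symbol, and 54 of the 55414 rows of the count table carry these symbols. Aldoa is named by 2 rows. The longer gene model was used, and the shorter, upstream one held 0 to 7 counts per library. All 53 genes passed the filter on low counts and were among the 14669 genes tested.

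RNA sequencing of polyadenylated RNA had been made from 10 libraries of mouse splenic macrophages, isolated with magnetic beads against F4/80, which mature macrophages of the mouse carry on their surface. The WT group holds 5 libraries labelled C57BL/6N and the other group 5 libraries labelled Fpr2KO, which lack Fpr2, through which neutrophils and macrophages sense formylated peptides and annexin A1. The labels give no age, sex or treatment, no strain background for the knockout, and no statement that replicates came from separate animals, so the spread behind each p-value is that of these libraries and may be technical. Libraries held between 15865820 and 19060188 counts, and the 53 genes took 0.579% to 0.686% of them.

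Fpr2 was at 19.2 to 33.6 CPM (counts scaled to an equal library size) in WT and at 0 counts in every Fpr2KO library, as the labels say. Markers of red pulp macrophages, the F4/80-positive macrophages that clear old red cells, summed to between 7958 and 10710 CPM in WT and between 8366 and 10401 CPM in Fpr2KO over 15 genes. Markers of other cells were present as well. The 15 erythroid markers all had higher estimates in Fpr2KO (sums of 1727 to 6744 CPM in WT and 4813 to 11263 CPM in Fpr2KO). The 15 neutrophil markers tested, of 16 listed, all had lower ones (sums of 983 to 1652 CPM and 546 to 1029 CPM). So did the 8 classical monocyte markers, whose sums (938 to 1459 CPM and 673 to 926 CPM) did not overlap between the groups. None of the marker genes passed the false discovery rate (FDR) of 0.05 by edgeR. In such bulk samples, fewer cells of a type and less RNA per cell cannot be told apart.

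Glycolysis splits glucose into pyruvate, which is reduced to lactate and exported or oxidised in the citrate cycle. The pentose phosphate pathway branches off after hexokinase and supplies NADPH, which phagocytes use for the oxidative burst, and ribose for nucleotides. In macrophages, inflammatory stimuli are known to raise glycolysis through the transcription factor HIF-1 and to induce Acod1, which turns cis-aconitate from the citrate cycle into itaconate. Resting macrophages rely more on mitochondrial oxidation.

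No gene of these pathways passed the FDR of 0.05 between Fpr2KO and WT by edgeR's quasi-likelihood test, at which 0.0682% of all genes tested passed. The FDR of the 53 genes ranged from 0.395 to 0.996. The estimates lay close to 0 for nearly all of them: 23 were higher and 30 lower in Fpr2KO, with a median log2 fold change of -0.01, beside 0.01 over all genes tested. With upper quartile scaling that median was 0.008. At an unadjusted p under 0.05 stood 3 of the 53 (5.66%): Slc2a3 and Acod1 with lower estimates and Slc16a1 with a higher one. The share over all genes tested was 9.8% in either direction, 4.88% higher and 4.92% lower.

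The 95% intervals say how large a difference these libraries could still hide. For 49 of the 53 genes the interval lay within a 1.5-fold difference in either direction, where 67.5% of all genes tested had such an interval. The width of an interval depends on the counts of the gene, and the 2 sets were not matched for level. The exceptions were Slc2a6, Slc16a1, Slc16a3 and Acod1. For 52 genes it lay within a 2-fold difference, Acod1 being the exception.

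**Figure D1:**
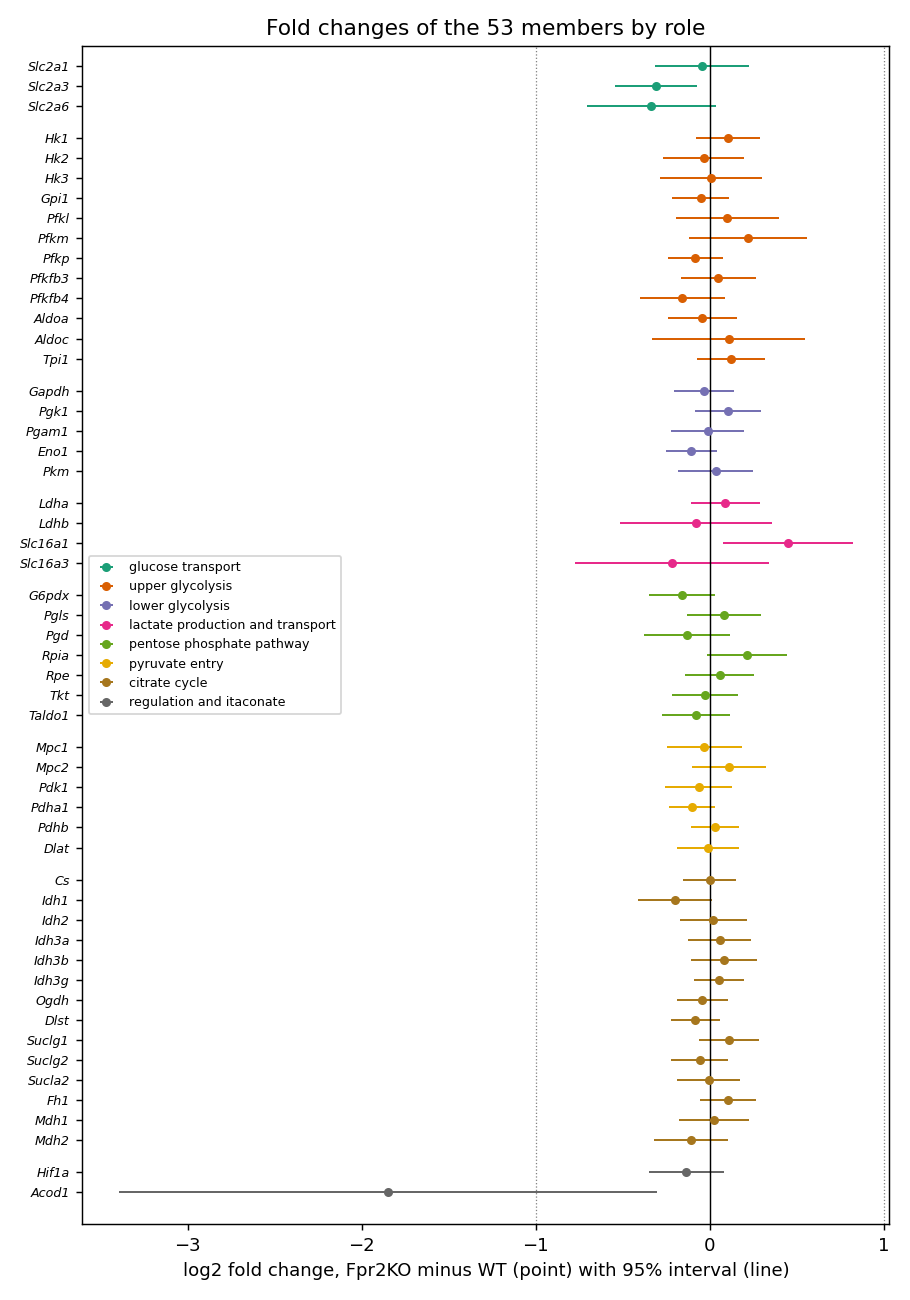
Log2 fold change of each of the 53 genes (horizontal axis, Fpr2KO minus WT; points) with its 95% interval (lines), grouped by role, with dotted lines at a 2-fold difference. All intervals but that of Acod1 lie within the dotted lines, and those of Slc2a3, Slc16a1 and Acod1 leave out 0.

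Glucose enters macrophages through facilitative transporters. Slc2a1 (GLUT1), the transporter known to rise on inflammatory activation, was measured at 40.2, 27.99, 32.1, 32.3 and 33.8 CPM in WT replicates 1 to 5. In Fpr2KO it was measured at 41.2, 25.1, 33.1, 30.6 and 31.1 CPM. Replicate 1 was highest in both groups, and the groups overlapped over their whole range (log2 fold change -0.04, SE 0.13, FDR = 0.929 by edgeR).

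Slc2a3 (GLUT3, ENSMUSG00000003153), a high-affinity transporter of neurons and leukocytes on the minus strand of chromosome 6 (122727809 to 122801640 in GRCm38), was measured at 151.7, 136.2, 114.0, 120.6 and 109.9 CPM in WT. The Fpr2KO libraries had 97.6, 87.9, 96.3, 103.9 and 125.1 CPM. In 4 of the 5 Fpr2KO libraries the level lay below every WT library, and replicate 5 lay inside the WT range. The log2 fold change was -0.31 (SE 0.11, unadjusted p = 0.0141, FDR = 0.395 by edgeR), an estimate with a lower value in Fpr2KO that did not pass. Slc2a6 (GLUT6), a transporter of intracellular membranes, ranged from 20.04 to 36.1 CPM in WT and from 14.9 to 26.3 CPM in Fpr2KO (log2 fold change -0.34, SE 0.17, FDR = 0.542 by edgeR). Neutrophil, classical monocyte and platelet markers also had lower estimates in Fpr2KO, none past the FDR by edgeR, and their part in these estimates was not tested. Within Fpr2KO, replicate 5, the highest in Slc2a3, had the highest classical monocyte and platelet sums (926 and 57.4 CPM). Its neutrophil sum was the second highest (904 CPM). Replicate 4, the second highest in Slc2a3, had the lowest neutrophil and classical monocyte sums (546 and 673 CPM).

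The hexokinases trap glucose as glucose 6-phosphate. Hk1, the housekeeping form bound to mitochondria, was at 50.9, 47.9, 55.9, 55.5 and 59.0 CPM in WT and at 58.7, 48.6, 58.3, 61.6 and 61.5 CPM in Fpr2KO. Apart from Fpr2KO replicate 2, the Fpr2KO libraries stood near or above the highest WT library (log2 fold change 0.10, SE 0.09, FDR = 0.709 by edgeR). Without WT replicate 2 the estimate was 0.06. Hk2, the inducible form, was at 61.9, 61.1, 55.8, 50.7 and 49.7 CPM in WT and at 45.8, 48.7, 52.6, 56.8 and 68.1 CPM in Fpr2KO. Fpr2KO replicates 1 and 2 lay below all WT libraries and replicate 5 above them (log2 fold change -0.04, SE 0.11, FDR = 0.936 by edgeR).

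Hk3, a myeloid hexokinase, was at 81.2, 78.2, 92.8, 104.2 and 58.7 CPM in WT. Fpr2KO libraries had 91.7, 71.2, 83.5, 74.1 and 96.3 CPM, all within the WT range (log2 fold change 0.01, SE 0.14, FDR = 0.992 by edgeR). The sign of this estimate changed with the normalisation and with the library left out.

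Pfkfb3 makes fructose 2,6-bisphosphate, the main activator of phosphofructokinase. It was measured at 89.5, 116.9, 97.9, 90.8 and 79.8 CPM in WT and at 92.2, 105.5, 99.5, 88.1 and 106.0 CPM in Fpr2KO (log2 fold change 0.05, SE 0.10, FDR = 0.896 by edgeR). Every Fpr2KO library lay within the WT range. Its paralogue Pfkfb4 ranged from 45.4 to 59.6 CPM in WT and from 35.9 to 55.9 CPM in Fpr2KO. The other upper-pathway genes were phosphoglucose isomerase (Gpi1), the 3 phosphofructokinases, the aldolases Aldoa and Aldoc, and triosephosphate isomerase (Tpi1). Over the 12 genes from hexokinase to triosephosphate isomerase, 7 estimates were higher and 5 lower, log2 fold changes ran from -0.16 (Pfkfb4) to 0.22 (Pfkm), and the lowest FDR was 0.666 by edgeR.

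The later steps of the pathway make ATP and pyruvate. Gapdh, glyceraldehyde 3-phosphate dehydrogenase, was at 622, 668, 719, 722 and 642 CPM in WT and at 710.3, 646, 687, 582 and 666 CPM in Fpr2KO. Fpr2KO replicate 4 was the lowest of the 10 libraries, and the others lay within the WT range (log2 fold change -0.04, SE 0.08, FDR = 0.908 by edgeR). Pkm, the pyruvate kinase of macrophages, was at 369, 371, 460.1, 429 and 384 CPM in WT and at 469.5, 333, 399, 439 and 418 CPM in Fpr2KO. Its highest and lowest levels both came from Fpr2KO libraries, replicates 1 and 2 (log2 fold change 0.03, SE 0.10, FDR = 0.939 by edgeR). Its M1 and M2 splice forms cannot be told apart in counts per gene. Phosphoglycerate kinase (Pgk1), phosphoglycerate mutase (Pgam1) and enolase (Eno1) gave estimates of 0.10 (SE 0.09), -0.01 (SE 0.10) and -0.11 (SE 0.07) on the log2 scale. These 5 genes have processed pseudogenes or close copies, and between 28.1% (Gapdh) and 54.7% (Pgk1) of the 31-base sequences of their transcripts also occur in another annotated gene. How far this affects their counts was not tested, and the same holds for 5 further members with a share over 20%: Gpi1, Ldhb, G6pdx, Mpc1 and Suclg2.

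Ldha, the lactate dehydrogenase subunit that favours lactate formation, was measured at 187, 204, 222, 227 and 204 CPM in WT. In Fpr2KO it was at 261, 191, 218, 228 and 212 CPM, with replicate 1 highest of all libraries and the other 4 close to the WT values (log2 fold change 0.09, SE 0.09, FDR = 0.768 by edgeR). Without that library the log2 fold change was 0.01, without WT replicate 1 it was 0.04 and without Fpr2KO replicate 2 it was 0.13. Ldhb, the subunit of oxidative tissues, was at 2.68 to 5.21 CPM in WT and 2.86 to 5.15 CPM in Fpr2KO.

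Slc16a1 (MCT1, ENSMUSG00000032902) is a proton-linked transporter of lactate and pyruvate on the plus strand of chromosome 3 (104638668 to 104658462 in GRCm38). It was measured at 14.5, 11.02, 9.25, 13.3 and 14.2 CPM in WT and at 24.5, 17.95, 15.2, 13.7 and 13.7 CPM in Fpr2KO. Replicates 1, 2 and 3 of Fpr2KO lay above all WT libraries, and replicates 4 and 5 lay inside the WT range. The log2 fold change was 0.45 (SE 0.17, unadjusted p = 0.0213, FDR = 0.424 by edgeR), and without Fpr2KO replicate 1 it was 0.27. The same 3 libraries had the highest erythroid marker sums of all 10, with 11263, 10655 and 7799 CPM. WT replicate 3, which had the lowest Slc16a1 level, had the lowest erythroid sum, 1727 CPM. The part of erythroid cells in the Slc16a1 estimate was not tested. Slc16a3 (MCT4), the lactate exporter of glycolytic cells, ranged from 19.1 to 33.9 CPM in WT and from 11.8 to 32.2 CPM in Fpr2KO, with an estimate of the opposite sign (log2 fold change -0.22, SE 0.25, FDR = 0.800 by edgeR).

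**Figure D2:**
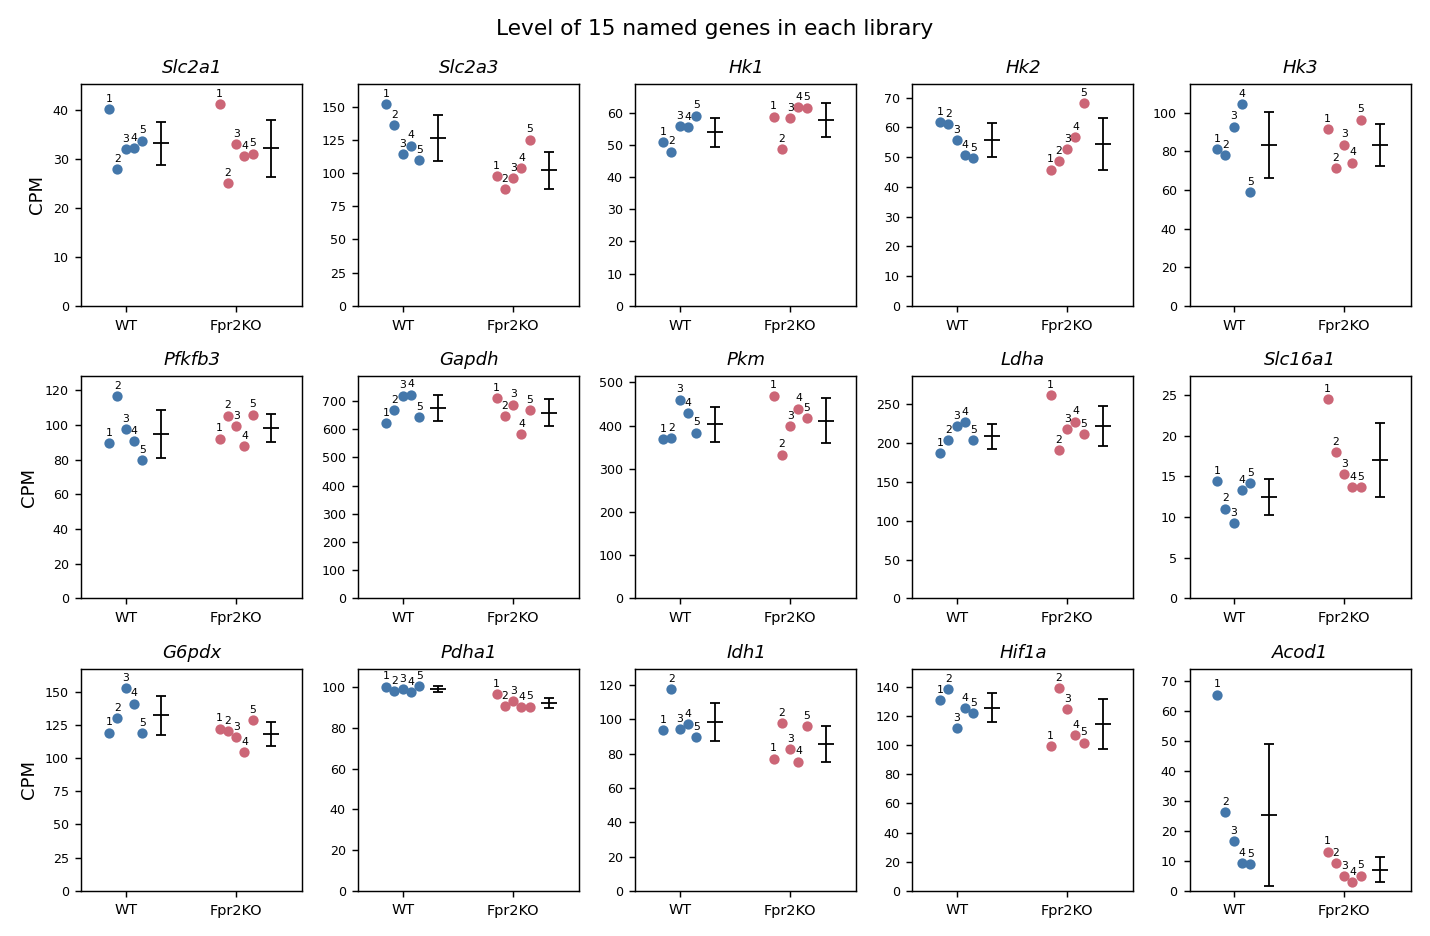
CPM (vertical axis, from 0) of the 15 genes given library by library in WT (blue) and Fpr2KO (red); numbers are replicates, and the bar with whiskers is the mean and SD of 5 libraries. The groups of Pdha1 do not overlap, whereas those of the other 14 genes do.

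G6pdx, the X-linked glucose 6-phosphate dehydrogenase that commits glucose to the pentose phosphate pathway, was at 119.1, 130, 152.5, 141 and 118.5 CPM in WT. Fpr2KO libraries had 122, 120.5, 115.5, 104 and 128 CPM. Replicates 3 and 4 of Fpr2KO were lower than any WT library, and the other 3 lay inside the WT range (log2 fold change -0.16, SE 0.09, FDR = 0.570 by edgeR). Of its exons, 13.6% overlap Ikbkg on the opposite strand, so reads of the pair cannot be told apart there without a known strand setting. Among the other genes of the branch, Rpia, ribose 5-phosphate isomerase, had the lowest unadjusted p, 0.065, with 27.5 to 36.8 CPM in WT and 32.7 to 46.3 CPM in Fpr2KO (log2 fold change 0.21, SE 0.11). Pgls, Pgd, Rpe, Tkt and Taldo1 had log2 fold changes between -0.13 (Pgd) and 0.08 (Pgls). Over the 7 genes, 3 estimates were higher and 4 lower.

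Pyruvate enters mitochondria through the carrier made of Mpc1 and Mpc2 and is oxidised by the pyruvate dehydrogenase complex. Pdha1 (ENSMUSG00000031299), the X-linked catalytic subunit of that complex on the minus strand at 160122209 to 160138413 of chromosome X in GRCm38, was the only one of the 53 genes whose groups did not overlap. It was measured at 100.3, 98.2, 99.3, 97.4 and 100.5 CPM in WT and at 96.5, 90.8, 93.3, 90.4 and 90.4 CPM in Fpr2KO. The difference was small (log2 fold change -0.10, SE 0.06, unadjusted p = 0.113, FDR = 0.605 by edgeR). One gene in 53 is 1.89%, beside 1.39% of all genes tested with groups apart in either direction and 0.566% with Fpr2KO lower. Exons of Map3k15 on the opposite strand overlap 16.1% of the Pdha1 exons. Opposite-strand overlap was 23.1% for Mpc1 and 17.9% for Rpe. On the same strand, Fam129c overlaps 20.6% of the Pgls exons and Gm49759 overlaps 15.3% of the Pkm exons. How far these overlaps affect the counts was not tested. Pdhb and Dlat, the partner subunit and the acetyltransferase of the complex, were estimated at 0.03 (SE 0.06) and -0.01 (SE 0.08) on the log2 scale. Pdk1, the kinase that inhibits the complex, had one of -0.06 (SE 0.09), Mpc1 one of -0.03 (SE 0.10) and Mpc2 one of 0.11 (SE 0.10).

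Idh1, the cytosolic NADP-dependent isocitrate dehydrogenase, was measured at 93.6, 117.9, 94.5, 97.5 and 89.5 CPM in WT and at 77.1, 97.9, 82.8, 75.4 and 95.9 CPM in Fpr2KO. In 3 of the 5 Fpr2KO libraries the level was below all of WT, and replicates 2 and 5 lay inside the WT range (log2 fold change -0.20, SE 0.10, unadjusted p = 0.0627, FDR = 0.535 by edgeR). Without WT replicate 2, the highest library, the estimate was -0.13. The estimate from all libraries was the largest absolute log2 fold change of the 14 genes of the cycle, of which 7 estimates were higher and 7 lower. The mitochondrial enzymes spanned -0.11 (Mdh2) to 0.11 (Suclg1). They are citrate synthase (Cs), Idh2, the 3 subunits of the NAD-dependent enzyme (Idh3a, Idh3b, Idh3g), the oxoglutarate dehydrogenase subunits Ogdh and Dlst, the succinyl-CoA ligase subunits Suclg1, Suclg2 and Sucla2, fumarase (Fh1) and malate dehydrogenase Mdh2. The cytosolic malate dehydrogenase Mdh1 was at 0.02. Cs was at -0.0015 (SE 0.07), and its 95% interval ran from a ratio of 0.898 to one of 1.11. Mitochondrially encoded genes had lower estimates for 12 of 13 genes in Fpr2KO, with sums of 46658 to 60375 CPM in WT and 29444 to 59410 CPM in Fpr2KO. Neither of these RNA levels measures mitochondrial content.

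Hif1a, the oxygen-regulated subunit of HIF-1, was measured at 131, 138, 112, 125.5 and 122 CPM in WT and at 99.3, 139, 125, 107 and 102 CPM in Fpr2KO. Replicate 2 of Fpr2KO was the highest of the 10 libraries, while replicates 1, 4 and 5 were the lowest (log2 fold change -0.14, SE 0.10, FDR = 0.678 by edgeR). Without replicate 2 the estimate was -0.23. The HIF-1 protein is controlled mainly by its breakdown, which these counts do not measure.

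Acod1 (ENSMUSG00000022126), on the plus strand of chromosome 14 (103046977 to 103056573 in GRCm38), had the largest estimate and the widest spread of the 53 genes. It was measured at 65.4, 26.4, 16.7, 9.25 and 8.80 CPM in WT and at 13.1, 9.28, 4.88, 2.95 and 5.09 CPM in Fpr2KO. WT replicates 1, 2 and 3 lay above every Fpr2KO library, replicates 4 and 5 lay between the Fpr2KO values, and 3 Fpr2KO libraries lay below all of WT. The mean CPM was 25.3 ± 23.5 for WT and 7.05 ± 4.08 for Fpr2KO (SD, n = 5), a log2 fold change of -1.85 (SE 0.68, unadjusted p = 0.0243, FDR = 0.438 by edgeR). The 95% interval ran from a ratio of 0.0951 to one of 0.809. Without WT replicate 1 the log2 fold change was -1.13.

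WT replicates 1 to 3, the highest in Acod1, were also the highest in neutrophil and immediate early markers. Immediate early genes respond within minutes to stimulation and to tissue dissociation. All 10 had lower estimates in Fpr2KO. Neutrophil marker sums in WT replicates 1 to 5 were 1652, 1352, 1470, 989 and 983 CPM, with the 3 libraries of highest Acod1 again highest. The immediate early sums over 10 genes were 15752.5, 14629, 18105, 12549.5 and 12254 CPM in the same order. In Fpr2KO the neutrophil sums were 1029, 795, 748, 546 and 904 CPM and the immediate early sums 12555.5, 10035, 10723, 10455 and 12166 CPM. Replicate 1, the highest in Acod1 of that group, was the highest in both sums, and replicate 4, the lowest in Acod1, was the lowest in the neutrophil sum. Fpr2KO replicate 2 went the other way: it had more Acod1 than replicate 5 (9.28 and 5.09 CPM) but was lower in both sums. Its immediate early sum was the lowest of all 10 libraries. The part of neutrophils or of sample handling in the Acod1 estimate was not tested.

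**Figure D3:**
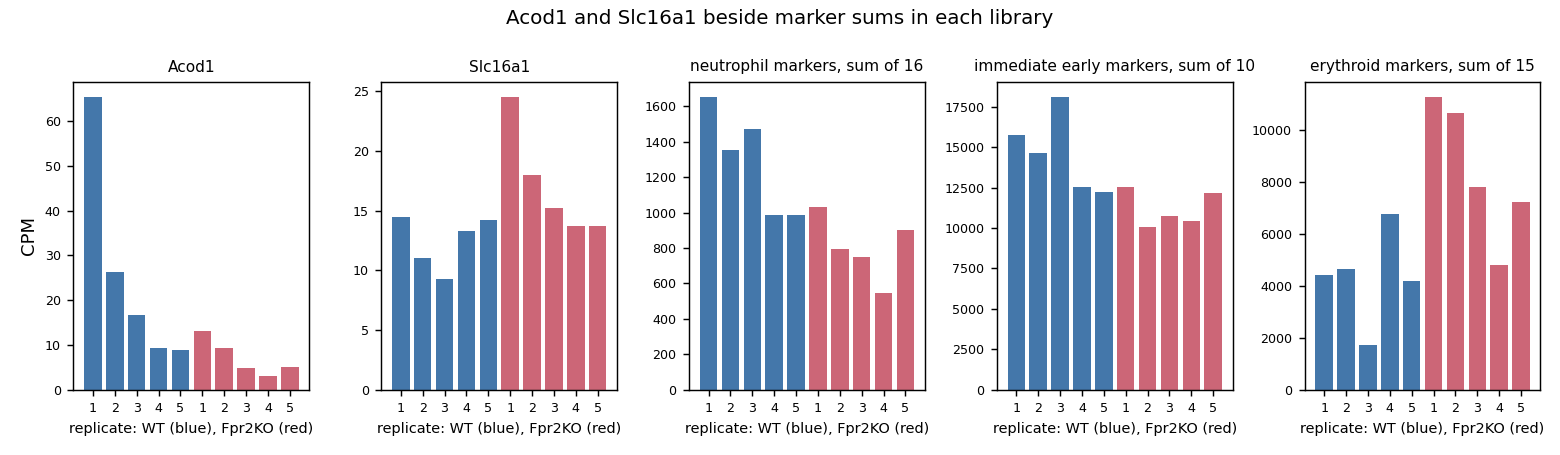
CPM of Acod1 and Slc16a1 and the summed CPM of neutrophil, immediate early and erythroid markers (vertical axes, from 0) in WT (blue) and Fpr2KO (red) replicates 1 to 5. WT replicates 1 to 3 are highest in Acod1 and in the neutrophil and immediate early sums, and Fpr2KO replicates 1 to 3 are highest in Slc16a1 and in the erythroid sum.

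Because HIF-1 is known to bind ACGTG and related letters in hypoxia response elements, the upstream sequences of 3 members are shown: Acod1 and Slc16a1, with the largest lower and higher estimates, and Ldha, a textbook HIF-1 target. Each is taken from the 250 bases before the RefSeq start (GRCm38.p6), 5′ to 3′ on the plus strand, and ends where a GENCODE exon of the gene begins: chr14:103046762-103046976 for Acod1, chr3:104638414-104638663 for Slc16a1 and chr7:46845554-46845803 for the first Ldha start listed. Capitals mark the letters ACGTG and, as a second form, GCGTG on either strand, so that the other strand reads in reverse complement. The palindrome CACGTG, the E-box of factors such as MYC, holds the motif on both strands.
Acod1: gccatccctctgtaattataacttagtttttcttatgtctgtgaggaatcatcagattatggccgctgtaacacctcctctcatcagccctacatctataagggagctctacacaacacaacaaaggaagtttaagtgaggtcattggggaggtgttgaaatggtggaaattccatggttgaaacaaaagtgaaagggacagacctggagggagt
Slc16a1: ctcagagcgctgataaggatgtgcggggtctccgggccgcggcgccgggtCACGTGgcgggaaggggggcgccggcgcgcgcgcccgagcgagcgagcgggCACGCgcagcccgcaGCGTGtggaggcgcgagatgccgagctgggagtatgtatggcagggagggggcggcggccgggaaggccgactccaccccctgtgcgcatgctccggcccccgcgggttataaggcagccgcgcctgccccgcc
Ldha: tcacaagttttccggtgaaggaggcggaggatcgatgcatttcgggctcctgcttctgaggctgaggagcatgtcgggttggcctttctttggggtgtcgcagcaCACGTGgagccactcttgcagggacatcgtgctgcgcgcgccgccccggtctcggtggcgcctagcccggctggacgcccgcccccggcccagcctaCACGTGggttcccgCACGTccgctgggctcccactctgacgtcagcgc

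The printed stretches held 0 matches for Acod1, 4 for Slc16a1 and 5 for Ldha. The annotations place the starts differently. The RefSeq start of Acod1 lies 35 bases after that of GENCODE, and the 1 match in its RefSeq window falls in those 35 bases, within the first GENCODE exon. That of Slc16a1 lies 4 bases before the GENCODE start. For Ldha the GENCODE gene begins 4329 bases before the RefSeq start used, so the stretch lies within the gene model but in none of its exons. Of the 53 genes, 51 had at least 1 window of 300 bases (250 before and 50 after a start) in the RefSeq table, 72 windows in all. The motif occurred in 56 of these (77.8%), beside 43.8% of all 32851 windows. It contains a CpG, and the windows of the 53 genes had a median GC content of 61.0%, beside 52.7% over all windows. The windows of Acod1, Slc16a1 and Ldha were at 47.0%, 73.7% and 67.3%. A match says only that these letters are present.

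The make-up of the gene families was compared per length. RPKM values, CPM divided by the summed exon length in kilobases, allow levels of different genes to be compared. The highest mean RPKM in WT were those of transaldolase (Taldo1, 185 ± 18.1, SD, n = 5), Gapdh (163 ± 10.9) and Aldoa (114.0 ± 12.8), and the lowest those of Aldoc (1.09 ± 0.198) and Pfkm (1.42 ± 0.148). Hk3 made up 58.5% ± 5.30 of hexokinase RPKM in WT and 58.7% ± 3.03 in Fpr2KO. Liver-type phosphofructokinase, Pfkl, made up 51.8% ± 3.4 and 53.5% ± 3.80 of its family, and the muscle type, Pfkm, 9.94% ± 0.778 and 11.1% ± 0.551. Ldha made up 96.0% ± 0.908 and 96.4% ± 1.15 of the lactate dehydrogenases. Among the transporters, Slc2a3 held 49.6% ± 4.14 and 47.4% ± 3.86 of the 3 glucose carriers. Slc16a1 held 36.6% ± 7.92 and 48.2% ± 10.2 of the lactate carriers. These shares depend on the exon lengths of the annotation, since a long unused exon lowers the value of a gene.

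**Figure D4:**
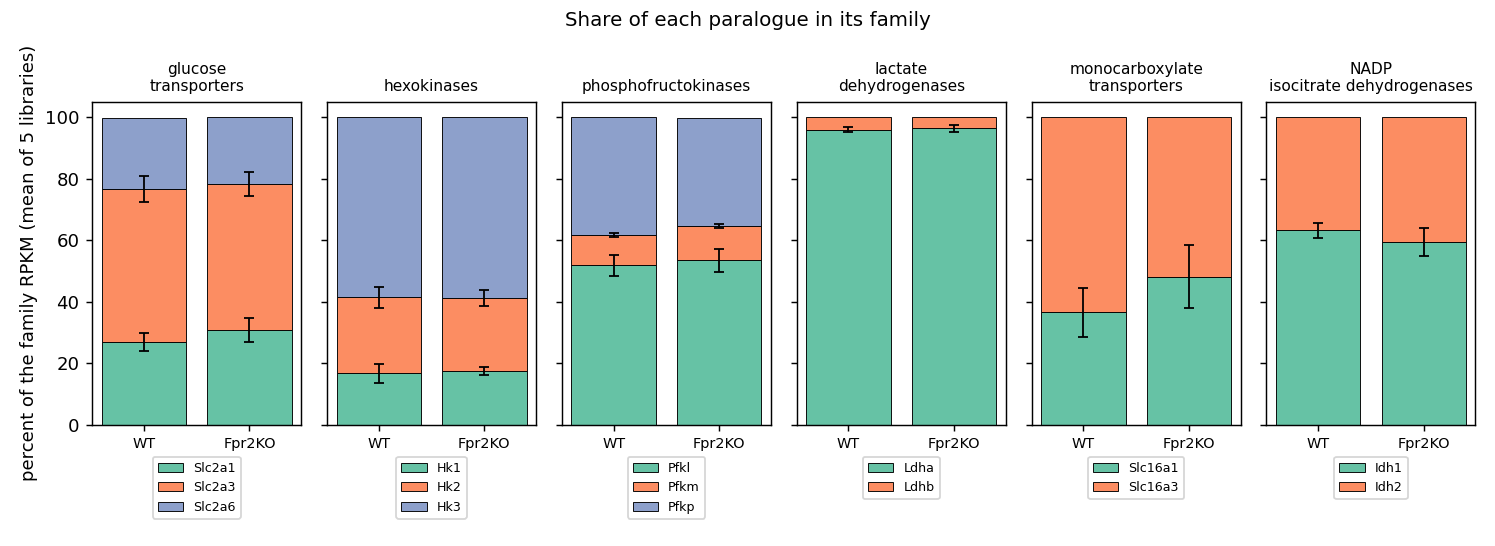
Share of each paralogue in the RPKM of its family (vertical axis, percent, mean of 5 libraries) in WT and Fpr2KO for 6 families; each whisker is the SD of the share of the segment it tops. Hk3, Pfkl and Ldha take the largest share of their families in both groups.

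For 7 pairs of paralogues the log2 ratio of their CPM within a library was compared between the groups by an exact permutation test (two-sided, n = 5 and 5, smallest possible p = 0.00794). None of the 7 passed after Benjamini-Hochberg adjustment, with adjusted p from 0.407 to 0.698, and none had an unadjusted p under 0.05. Given the smallest possible p, a single ratio could not have passed after adjustment over 7, even with its groups fully apart. The largest difference was that of MCT4 over MCT1. Slc16a3/Slc16a1 was at 1.20, 1.22, 1.66, 0.72 and 0.42 on the log2 scale in WT and at 0.39, -0.59, 0.63, 0.36 and 1.00 in Fpr2KO, a difference of -0.69 (SE 0.34, exact permutation p = 0.0635, adjusted p = 0.407). In 3 of the 5 Fpr2KO libraries the ratio was below every WT library. Without 1 library the difference ran from -0.85 (without Fpr2KO replicate 5) to -0.45 (without Fpr2KO replicate 2). Ldha/Ldhb differed by 0.15 (SE 0.25), Slc2a3/Slc2a1 by -0.25 (SE 0.16), Hk3/Hk2 by 0.07 (SE 0.18) and Pfkp/Pfkl by -0.17 (SE 0.15). For Idh1/Idh2, the cytosolic over the mitochondrial enzyme, the difference was -0.22 (SE 0.14), and for Suclg2/Sucla2, the GTP-specific over the ATP-specific subunit, it was -0.05 (SE 0.05). Leaving out 1 library moved these differences too. Ldha/Ldhb ran from 0.00 (without Fpr2KO replicate 1) to 0.30 (without WT replicate 4 or Fpr2KO replicate 2), and Pfkp/Pfkl from -0.28 (without Fpr2KO replicate 2) to -0.11 (without Fpr2KO replicate 5). Slc2a3/Slc2a1 ran from -0.34 (without Fpr2KO replicate 5) to -0.15 (without Fpr2KO replicate 1), and Idh1/Idh2 from -0.32 (without Fpr2KO replicate 2) to -0.15 (without Fpr2KO replicate 1). Suclg2/Sucla2 ran from -0.08 (without WT replicate 1) to -0.03 (without WT replicate 3 or 5), and Hk3/Hk2 from -0.03 (without Fpr2KO replicate 1) to 0.19 (without WT replicate 4).

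Fpr2KO replicate 2 was the lowest library for more of these genes than any other library was. Of the 53 genes, 18 (34.0%) had their lowest CPM in Fpr2KO replicate 2, where 15.9% of all genes tested were lowest. These included all 3 glucose transporters, 7 of the 12 genes of upper glycolysis and 4 of the 7 pentose phosphate genes. For the citrate cycle it was 1 of 14, Mdh2 (213 CPM there, 241 to 311 CPM in the other libraries but WT replicate 5, at 232 CPM), and 5 of 14 were highest there. Relative to its mean over the 10 libraries, the log2 level of upper glycolysis averaged -0.26 in Fpr2KO replicate 2, between -0.08 and 0.08 in WT, and between 0.05 and 0.12 in the other Fpr2KO libraries. The average for the citrate cycle was 0.02 in Fpr2KO replicate 2 and between -0.05 and 0.06 in the 10 libraries. Fpr2KO replicate 2 also had the highest mitochondrially encoded sum of its group, 59410 CPM against 29444 to 39743 CPM in the other 4, and an erythroid sum of 10655 CPM. No other library was as high in both sums. Fpr2KO replicate 1 had sums of 11263 CPM (erythroid) and 39743 CPM (mitochondrially encoded), with upper glycolysis at 0.05. WT replicate 1 had sums of 4411 CPM (erythroid) and 60375 CPM (mitochondrially encoded), with upper glycolysis at -0.04. The part of either sum, or of both together, in the glycolytic values of Fpr2KO replicate 2 was not tested.

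Without Fpr2KO replicate 2, 9 of the 53 genes stood at an unadjusted p under 0.05 and none passed the FDR by edgeR, with 17.4% of all genes at that unadjusted p. Beside Slc2a3, Acod1 and Slc16a1 these were Pfkl (log2 fold change 0.21), Pfkm (0.32), Pgls (0.16) and Rpia (0.24) with higher estimates and Idh1 (-0.26) and Hif1a (-0.23) with lower ones. Leaving out WT replicate 5 gave 6 genes (9.61% of all genes) and leaving out Fpr2KO replicate 5 gave 5 (10.5%). DESeq2 gave 5 (10.6%). With the replicate number as a block, a pairing that was not established, 5 stood at an unadjusted p under 0.05 (11.2%) and 1, Acod1, passed the FDR by edgeR (0.436% of all genes).

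**Figure D5:**
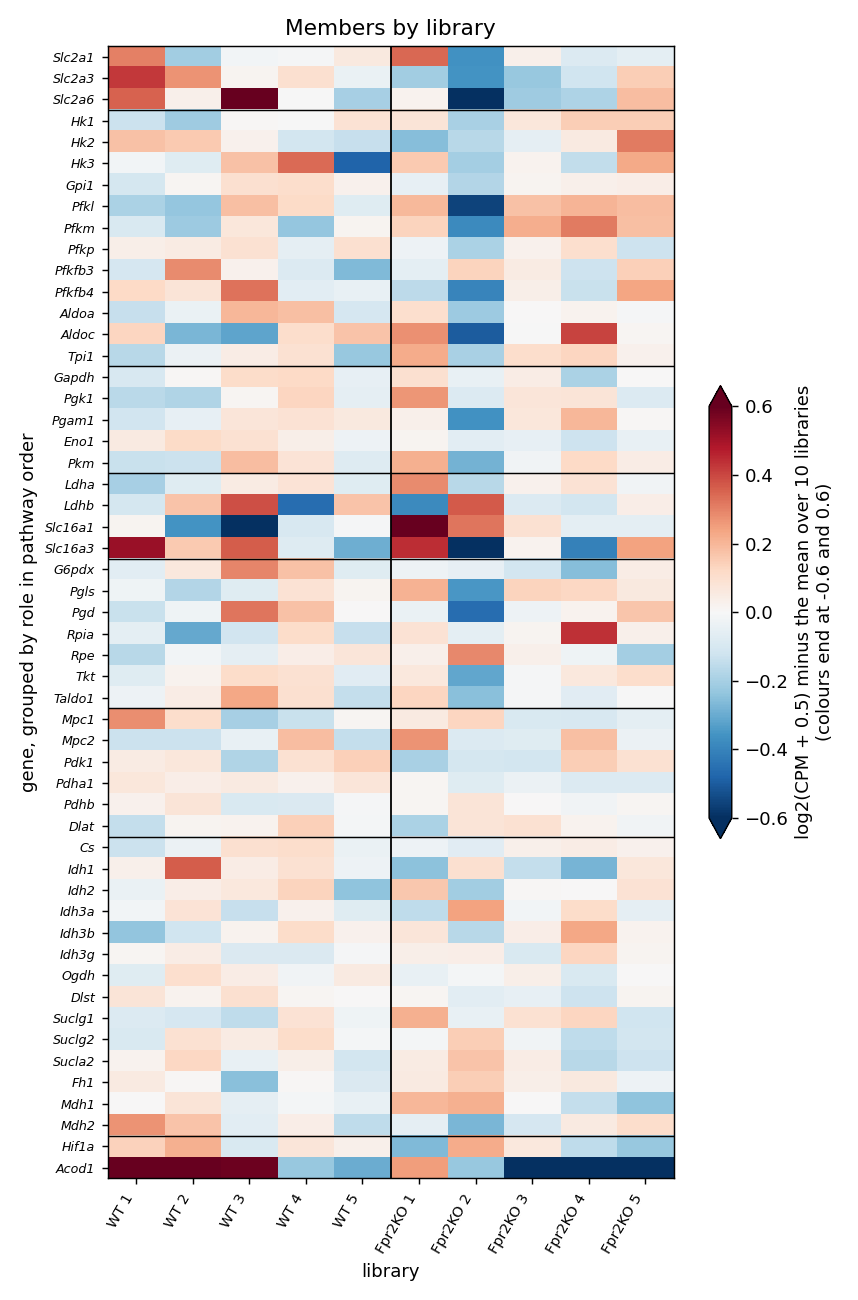
log2(CPM + 0.5) of the 53 genes (rows, in pathway order) in each library (columns) relative to the mean of the gene over 10 libraries, with colours ending at -0.6 and 0.6. The column of Fpr2KO replicate 2 is blue through the glucose transporters and most of upper glycolysis, and the Acod1 row runs past both ends of the scale.

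Of 92 other genes of these pathways, 82 were tested and none passed the FDR by edgeR. At an unadjusted p under 0.05 stood 4 with higher and 2 with lower estimates, beside 4.88% and 4.92% of all genes tested. Among 25 further glycolytic and glycogen genes, 15 estimates were higher and 10 lower. The lowest p-values there were those of the insulin-responsive transporter Slc2a4 and of Pklr, the pyruvate kinase of liver and red cells, both with few counts and with all Fpr2KO libraries above all WT libraries, as for 0.825% of all genes tested. Pklr was at 0.318, 0.378, 0, 1.31 and 1.249 CPM in WT and at 1.89, 2.18, 3.45, 2.13 and 2.57 CPM in Fpr2KO (log2 fold change 1.89, SE 0.54, FDR = 0.265 by edgeR). Slc2a4 was at 0.422 ± 0.301 and 1.54 ± 0.281 CPM (SD, n = 5), which gave a log2 fold change of 1.87 (SE 0.46) and an FDR of 0.185 by edgeR. DESeq2, which called 1.26% of all genes, called both, with adjusted p = 0.0292 for Pklr and 0.00851 for Slc2a4. All 15 erythroid markers had higher estimates in Fpr2KO as well, with sums that overlapped between the groups as given above, and their part was not tested. Pygl, glycogen phosphorylase of liver and leukocytes, was at 171 ± 24.6 and 136 ± 16.0 CPM (SD, n = 5), with a log2 fold change of -0.33 (SE 0.11) and an FDR of 0.350 by edgeR.

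Among 10 other genes of pyruvate oxidation and carboxylation, 5 estimates were higher and 5 lower, led by pyruvate carboxylase (Pcx) with 4.01 ± 1.00 (WT) and 5.90 ± 0.824 (Fpr2KO) as mean CPM with SD over n = 5, a log2 fold change of 0.56 with an SE of 0.19 and an FDR of 0.360 by edgeR. The 21 other citrate cycle and shuttle genes had 14 higher and 7 lower estimates and none at an unadjusted p under 0.05. Among them were glutamate dehydrogenase Glud1 (log2 fold change -0.14) and the succinate dehydrogenase subunit Sdhb (0.11). The 6 other pentose phosphate genes tested had 3 higher and 3 lower, led by H6pd (-0.16). Of 20 partners and targets of HIF-1, 6 estimates were higher and 14 lower, with a median log2 fold change of -0.05 and none at an unadjusted p under 0.05. Vegfa, the angiogenic factor, was at 20.1, 15.2, 10.6, 9.82 and 9.65 CPM in WT and at 11.97, 9.70, 9.10, 6.67 and 10.9 CPM in Fpr2KO (log2 fold change -0.43, SE 0.21, FDR = 0.536 by edgeR). Its highest levels came from WT replicates 1 and 2, the libraries with the highest Acod1. Fam162a (0.20) and Ankrd37 (0.30) followed with higher estimates.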

How the data were processed

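The values deposited by the authors are raw counts of reads for each Ensembl gene in 10 libraries, without normalisation. The submitters' processing notes name HTSeq 0.10.0, FastQC 0.10.1 and 2 build names, mm10 and GRCm38. For the aligner, strand option and gene annotation, nothing was given in the sources used here. Symbols, coordinates and exon lengths came from GENCODE M21 (GRCm38), which matched 52081 of 55414 identifiers.

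The comparison used edgeR 4.0.16 under R 4.3.3: filterByExpr (14669 genes kept), TMM, glmQLFit with robust=TRUE, glmQLFTest of Fpr2KO against WT without covariates, two-sided, Benjamini-Hochberg adjustment over all genes tested and an FDR of 0.05. The SE is the fold change divided by the square root of F, and 95% intervals use the degrees of freedom implied by F and p. Ratios used a pseudocount of 0.5 CPM. The fit was tested on simulated data. Alternatives were RLE and upper quartile scaling, 2 other filters, DESeq2 1.42.0, limma 3.58.1 (voom), a replicate block and leaving out each library. Replicates of a group differed by more than sampling noise in all 20 pairs.

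The members and lists were chosen with earlier results of these data known. Values in every library are given for members at an unadjusted p under 0.05 or with groups apart (Pdha1) and for 12 genes fixed by name; of the other pathway lists, up to 3 genes by smallest p, of which 1 is not reported here. The remaining marker sums, as ranges of CPM in WT and in Fpr2KO with the estimates in Fpr2KO, were 52.2 to 74.1 and 43.3 to 57.4 for platelets (6 of 6 tested lower), 2201 to 3344 and 2871 to 3836 for B cells (7 of 7 higher), 137 to 182 and 154 to 186 for T cells (6 of 7 higher), 30.1 to 38.0 and 32.2 to 41.0 for NK cells (5 of 6 higher), 234 to 343 and 275 to 359 for dendritic cells (5 of 6 higher) and 456 to 712 and 659.9 to 867 for the cell cycle (10 of 10 higher). No listed marker was at 0 in all libraries.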

Additional observations from a re-analysis of the deposited data

Results flagged for a closer look

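Of 120 groups of 5 libraries checked (the 53 genes and 7 ratios in each genotype), 6 had a highest or lowest library set apart from the rest by more than 0.71 of the range of the group, the 95% limit of Dixon's test. Chance flags about 1 group in 20. In Fpr2KO, replicate 2 was set apart with the lowest Hk1 (48.6 CPM) and the lowest Pfkl (34.1 CPM), and replicate 4 with the highest Rpia (46.3 CPM). In WT, replicate 4 was set apart with the highest Mpc2 (32.6 CPM) and the highest log2 ratio of Ldha to Ldhb (6.16), and replicate 2 with the highest Idh1 (117.9 CPM).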

How the results depend on the processing

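With RLE, upper quartile, both other filters, DESeq2, limma voom and each of the 10 fits without 1 library, 0 of the 53 genes passed the FDR. The count of the 53 at an unadjusted p under 0.05 was 3 in the reference fit, 5 with DESeq2, and 2 to 9 without 1 library. Over all genes 10 passed, 62 with no filter, 185 with DESeq2, and 8 to 51 without 1 library (51 without WT replicate 5, 26 without WT replicate 4 or Fpr2KO replicate 2). DESeq2 called 2 of the other pathway genes. The median log2 fold change of the 53 genes lay between -0.046 and -0.001 without 1 library. The estimate of Hk3 turned negative with RLE (-0.0037), the 1 CPM filter (-0.0016) and DESeq2 (-0.0037). Without 1 library it ran from -0.11 to 0.10, that of Slc2a1 from -0.16 to 0.02, Hk2 from -0.13 to 0.01, Pfkfb3 from -0.02 to 0.13, Gapdh from -0.07 to 0.01 and Pkm from -0.03 to 0.09; the difference of the ratio Hk3/Hk2 ran from -0.03 to 0.19. No ratio passed under any setting run, but some of these outcomes were fixed in advance. With the replicate block, the exact test on 5 pairs cannot give a p under 0.05. Without 1 library, a single ratio could not have passed after adjustment, whatever its values. The cause of the changes between settings was not tested.

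Replicate numbers are shared by the groups. The deviations of same-numbered libraries correlated between -0.239 and 0.291, with 2 of 5 numbers over 0.1, and 4 of 10 libraries correlated best with their own number. The numbers were therefore not taken as pairs, but weak correlations over all genes cannot show that same-numbered libraries were unpaired. Acod1 did share an order: its level fell from replicate 1 to replicate 4 in both groups. Its SE was 0.192 with the replicate block and 0.676 in the reference fit. Whether the shared order comes from pairing was not tested. With the replicate block 64 genes passed over all genes, and 1 of the 53, Acod1 (log2 fold change -1.63, adjusted p = 0.0171 by edgeR, whose adjusted p ranged from 0.0171 to 0.782 over its alternatives), and 5 stood at an unadjusted p under 0.05. Few counts limit Ldhb, Aldoc, Pfkm and Acod1 most: the lowest library count of a member was 40.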
